A study of Canis lupus familiaris with 17 samples.

Results

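The 7 genes described here encode receptor chains for interleukin-2, interleukin-12 and interleukin-7 (IL2RA, IL2RB, IL12RB2 and IL7R) and related cytokines (IL15, IL21 and IL7), measured in canine soft tissue sarcomas after intratumoral injection of interleukin-2 and interleukin-12. They were chosen by name, with earlier results of these data known, as the endogenous probes of the panel that carry these symbols. All 7 were found among the 780 endogenous probes of a canine immuno-oncology nCounter panel, a hybridization assay that counts fluorescent barcodes bound to each RNA species without amplification. All 7 symbols also matched the NCBI RefSeq gene table for the dog assembly UU_Cfam_GSD_1.0, as genes 403870 (IL2RA), 403439 (IL2RB), 489550 (IL12RB2), 612582 (IL7R), 403584 (IL15), 442935 (IL21) and 751768 (IL7).

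The study took 17 tumours from pet dogs with spontaneous sarcomas and compared 3 treated groups with untreated tumours. In the TwoDose_2d group (4 tumours), forms of IL-2 and IL-12 that bind collagen were injected into the tumour on days 0 and 6, and the tumour was removed 2 days after the later injection. In the OneDose_8d group (3 tumours) a single dose was followed by excision 8 days later, and in the OneDose_2d group (3 tumours) by excision 2 days later. The untreated group (7 tumours) was archived tissue that received no injection, so a difference between archived and trial tissue cannot be told apart from treatment. All RNA came from fixed, paraffin-embedded tissue. By sarcoma type, the TwoDose_2d tumours were 3 of Peripheral nerve sheath tumor type (A, B and C) and 1 Fibrosarcoma (D). Of the OneDose_8d tumours, A was a Perivascular wall tumor, and of the OneDose_2d tumours, B was a Myxosarcoma; the other tumours in both groups were of Peripheral nerve sheath tumor type. Untreated tumours B, F and G were of Peripheral nerve sheath tumor type as well, and the other 4 were Perivascular wall tumor. Each tumour within a group is named by the letter of its label. The letters mark different tumours, and every p-value below measures the spread between tumours.

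IL2RA (CD25) is the alpha chain that gives the IL-2 receptor its high affinity, while IL2RB (CD122) is the signalling beta chain that IL-2 and IL-15 receptors share and that NK cells and memory or effector T cells carry. IL12RB2 is the signalling chain of the IL-12 receptor on NK cells and type 1 T cells, and IL7R (CD127) is the alpha chain of the IL-7 receptor on naive and memory T cells, which T cell activation is known to lower. IL-15 is made mainly by myeloid and stromal cells and sustains NK and memory CD8 T cells, IL-7 is a stromal survival factor for T cells, and IL-21 is made chiefly by activated CD4 T cells. In a whole-tumour extract, fewer cells of a type and less RNA per cell cannot be told apart.

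Total endogenous counts lay between 1016527 and 1752729 in 15 of the libraries. They were 205118 in TwoDose_2d tumour D and 126997 in OneDose_2d tumour C, which stood apart from the rest. Values below are raw counts scaled to the geometric mean of the panel's 20 housekeeping probes and are called normalized counts. That geometric mean was itself lower than in any untreated tumour in the OneDose_2d tumours and in TwoDose_2d tumours B and D. In TwoDose_2d tumours A and C, at 643 and 608 counts, it lay within the untreated range. It ranged from 55.1 to 643 counts in TwoDose_2d and from 61.9 to 281 in OneDose_2d tumours. The range was 526 to 709 in OneDose_8d and 489 to 686 in untreated tumours. With this scaling the median log2 difference of all 724 tested probes was 0.63 for TwoDose_2d minus untreated, 0.09 for OneDose_8d minus untreated and 1.23 for OneDose_2d minus untreated. Under trimmed-mean (TMM) scaling, which assumes that most probes do not change, the same medians were -0.05, -0.03 and 0.25. Differences are therefore also given relative to the median probe. A count above the mean plus 2 SD of a library's negative control probes is called above the detection limit. That limit lay between 12.6 and 66.1 normalized counts in the 15 deeper libraries, at 338 in TwoDose_2d tumour D and at 163 in OneDose_2d tumour C. Probes bind with different efficiency, so levels are compared between tumours and not between genes.

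Both IL-2 receptor chains and IL15 were higher 2 days after a dose, whether it was the first or the second, and no member passed the test against untreated tumours 8 days after a single dose. IL2RB showed the largest difference of the 7 in both day 2 groups, 15.8-fold in TwoDose_2d and 13.9-fold in OneDose_2d tumours. In TwoDose_2d tumours 4 of the 7 members passed an adjusted p of 0.05 (edgeR's quasi-likelihood test, Benjamini-Hochberg over all 724 probes tested), all of them higher, beside 33.7% of all probes tested (33.3% higher). In OneDose_2d tumours 6 of 7 passed, all higher, beside 50.4% of all probes (47.8% higher). With TMM scaling 3 members (IL2RA, IL2RB and IL15) passed in TwoDose_2d tumours, beside 21.5% of all probes called higher, and 4 (the same 3 and IL21) in OneDose_2d tumours, beside 23.5%. The median difference of the 7 members was 1.88 in TwoDose_2d tumours, 0.56 in OneDose_8d tumours and 2.90 in OneDose_2d tumours. In OneDose_8d tumours 0 of 7 passed, beside 0% of all probes; 33 of the 724 probes had an unadjusted p under 0.05, none of the 7 did, and DESeq2 and limma also called 0 probes. All 3 comparisons share the same untreated tumours.

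**Figure D1:**
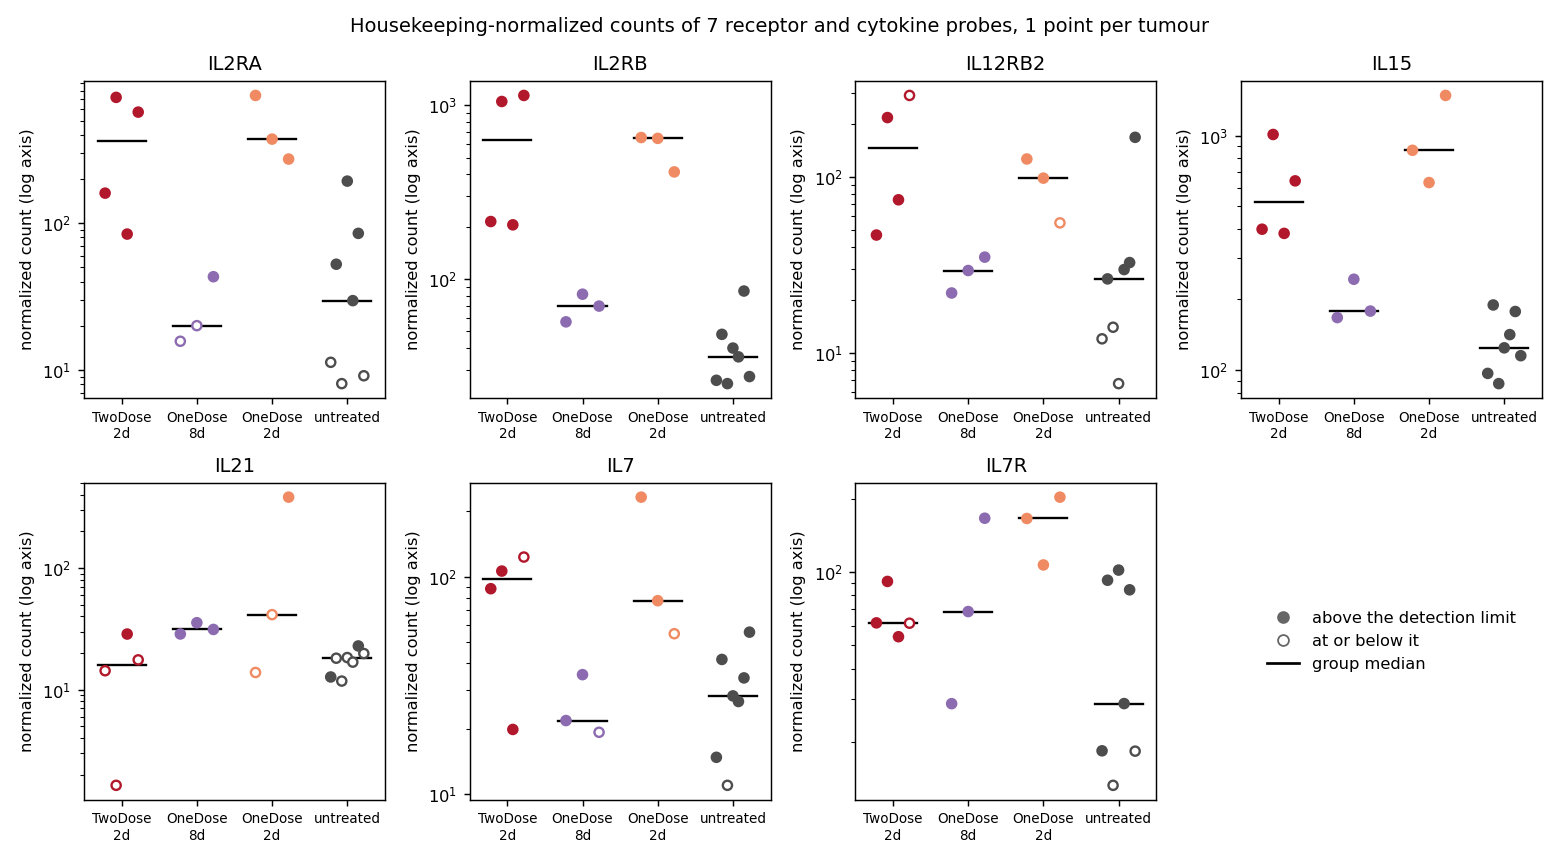
Normalized counts of the 7 probes on a log axis, 1 point per tumour, with the group median as a line; open points are at or below the library's detection limit. For IL2RB and IL15 every tumour taken 2 days after a dose lies above every untreated tumour, while the 3 OneDose_8d tumours lie between 56.6 and 81.7 for IL2RB and between 167 and 244 for IL15.

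IL2RA had 160, 719, 84.3 and 571 normalized counts in TwoDose_2d tumours A to D. It had 15.7, 20.0 and 43.2 in OneDose_8d tumours A to C, the first 2 of which were not above the detection limit, and 741, 374 and 273 in OneDose_2d tumours A to C. The 7 untreated tumours ranged from 8.08 to 193 with a median of 29.7, and 4 of them were above the detection limit. The OneDose_2d tumours all lay above every untreated tumour, whereas TwoDose_2d tumours A and C lay below untreated tumour D, the highest of its group, and the OneDose_8d values were within the untreated range. The log2 difference was 2.77 ± 0.79 (SE) for TwoDose_2d minus untreated (6.84-fold, edgeR adjusted p = 0.0117) and 3.06 ± 0.83 for OneDose_2d minus untreated (8.35-fold, adjusted p = 0.00691). For OneDose_8d minus untreated it was -1.08 ± 0.95 (adjusted p = 0.984). Relative to the median probe, IL2RA stood at 2.14 in TwoDose_2d and 1.83 in OneDose_2d tumours, and with TMM scaling at 2.07 and 1.95. The TwoDose_2d call was lost when TwoDose_2d tumour B was left out (2.25, edgeR adjusted p = 0.074). It was also lost without the 2 low-count libraries (2.53, adjusted p = 0.0519). With sarcoma type as a term in the fit, neither TwoDose_2d (2.67, adjusted p = 0.141) nor OneDose_2d (2.98, adjusted p = 0.078) was called. Within the Peripheral nerve sheath tumor type alone, with fewer tumours, neither was called either (2.71, adjusted p = 0.155, and 3.38, adjusted p = 0.0687).

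IL2RB was above the detection limit in all 17 tumours. It had 214, 1053, 205 and 1141 normalized counts in TwoDose_2d tumours A to D, 56.6, 81.7 and 69.8 in OneDose_8d tumours A to C, and 653, 646 and 414 in OneDose_2d tumours A to C. Untreated tumours ranged from 25.0 to 85.2 with a median of 35.6. Every tumour taken 2 days after a dose lay above every untreated tumour, and the 3 OneDose_8d tumours fell in the upper part of the untreated range, under its highest tumour, F. Within the TwoDose_2d group, tumours B and D were about equally high and tumours A and C about equally low; the same pair was high for IL2RA and IL12RB2, and B and D were also the libraries with the fewest housekeeping counts, 297 and 55.1 against 643 and 608 in A and C. The part of that scaling in the split was not tested. The log2 difference was 3.98 ± 0.49 (SE) for TwoDose_2d minus untreated (edgeR adjusted p = 3.55e-05) and 3.80 ± 0.51 for OneDose_2d minus untreated (adjusted p = 4.61e-05). For OneDose_8d minus untreated it was 0.76 ± 0.52 (adjusted p = 0.984). Relative to the median probe the 2 called differences were 3.35 and 2.57, and with TMM scaling 3.14 and 2.58. Leaving out each tumour in turn kept the TwoDose_2d difference between 3.58 and 4.28 and the OneDose_2d difference between 3.69 and 4.08, with an adjusted p of at most 0.000336.

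IL12RB2, the signalling receptor chain of the other injected cytokine, had 46.6, 217, 73.9 and 290 normalized counts in TwoDose_2d tumours A to D, where the value of D rests on 33 raw counts and was not above the detection limit. It had 21.8, 29.3 and 34.9 in OneDose_8d tumours A to C, and 126, 98.2 and 54.7 in OneDose_2d tumours A to C, where C rests on 7 raw counts and was not above the limit. Untreated tumours ranged from 6.67 to 167 with a median of 26.3. A single untreated tumour, G, held the 167 and the other 6 reached 32.5 at most, so both day 2 groups lay above 6 of the 7 untreated tumours and overlapped the group only through G. Neither day 2 difference passed the edgeR test with all tumours and housekeeping scaling: it was 1.88 ± 0.72 (SE) for TwoDose_2d minus untreated (edgeR adjusted p = 0.0531) and 1.20 ± 0.78 for OneDose_2d minus untreated (adjusted p = 0.21). Without untreated tumour G they were 2.92 (adjusted p = 0.00114) and 2.23 (adjusted p = 0.00664), and the TwoDose_2d difference also passed without TwoDose_2d tumour A (2.20, adjusted p = 0.0271) or C (2.12, adjusted p = 0.0374). With all tumours, limma on the deposited values called the TwoDose_2d difference (2.28, adjusted p = 0.0436). A fit in edgeR with the replicate letter as a block called both (3.18, adjusted p = 0.00385, and 2.84, adjusted p = 0.00587). Letters E, F and G occur only among untreated tumours, so the differences in that fit do not draw on those tumours, G included. With TMM scaling and all tumours the TwoDose_2d difference was 0.88 (adjusted p = 0.323) and the OneDose_2d difference 0.05 (adjusted p = 0.956). Relative to the median probe they were 1.25 and -0.04 with housekeeping scaling. For OneDose_8d minus untreated the difference was -0.52 ± 0.83 (adjusted p = 0.984), and without tumour G it was 0.51.

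IL7R had 61.7, 91.3, 54.1 and 61.5 normalized counts in TwoDose_2d tumours A to D, with D not above the detection limit. It had 28.7, 68.6 and 166 in OneDose_8d tumours A to C, and 166, 107 and 203 in OneDose_2d tumours A to C. Untreated tumours ranged from 13.2 to 102 with a median of 28.7 and fell into 4 low tumours and 3 high ones (B, D and F). The OneDose_2d tumours all lay above every untreated tumour, the TwoDose_2d tumours lay above the 4 low untreated tumours and within or under the 3 high ones, and the OneDose_8d tumours spanned nearly the whole range. The log2 difference was 1.62 ± 0.63 (SE) for OneDose_2d minus untreated (3.08-fold, edgeR adjusted p = 0.0416), but relative to the median probe it was 0.39, and with TMM scaling the difference was 0.74 (adjusted p = 0.282). For TwoDose_2d minus untreated it was 0.40 ± 0.60 (adjusted p = 0.656) and turned to -0.10 with TMM scaling, and for OneDose_8d minus untreated it was 0.78 ± 0.63 (adjusted p = 0.984). The OneDose_2d call was also lost without any 1 of 7 tumours, with an adjusted p of at most 0.138: each of the 3 OneDose_2d tumours, and untreated tumours A, C, E and G.

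Among the cytokines, IL15 was above the detection limit in all 17 tumours. It had 399, 1011, 382 and 641 normalized counts in TwoDose_2d tumours A to D, 167, 244 and 178 in OneDose_8d tumours A to C, and 866, 630 and 1484 in OneDose_2d tumours A to C. Untreated tumours ranged from 87.4 to 189 with a median of 124. Every day 2 tumour of either dosing lay above every untreated tumour, and the OneDose_8d tumours overlapped the upper untreated values. The log2 difference was 2.19 ± 0.33 (SE) for TwoDose_2d minus untreated (4.56-fold, edgeR adjusted p = 0.000187) and 2.90 ± 0.35 for OneDose_2d minus untreated (7.44-fold, adjusted p = 4.35e-05). For OneDose_8d minus untreated it was 0.56 ± 0.37 (adjusted p = 0.984). Relative to the median probe the called differences were 1.56 and 1.66, and with TMM scaling 1.51 and 1.68. IL15 was thus 1 of 2 members, with IL2RB, in which every TwoDose_2d tumour lay above every untreated tumour, beside 11.3% of all probes tested. In OneDose_2d tumours IL2RA, IL2RB, IL15 and IL7R were apart from untreated in this way, beside 30.9% of all probes, and with TMM scaling IL2RB and IL15 were, beside 14.2%.

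IL7 had 88.0, 106, 19.9 and 123 normalized counts in TwoDose_2d tumours A to D, with D at 14 raw counts and not above the detection limit. It had 21.8, 35.5 and 19.3 in OneDose_8d tumours A to C, and 232, 77.5 and 54.7 in OneDose_2d tumours A to C, with C at 7 raw counts and not above the limit. Untreated tumours ranged from 11.0 to 55.6 with a median of 28.3. Both day 2 groups overlapped the untreated range, the TwoDose_2d group through tumour C and the OneDose_2d group through tumour C. The log2 difference was 1.43 ± 0.53 (SE) for TwoDose_2d minus untreated (2.70-fold, edgeR adjusted p = 0.0442) and 2.02 ± 0.55 for OneDose_2d minus untreated (4.07-fold, adjusted p = 0.00712). With TMM scaling neither passed, at 0.69 (adjusted p = 0.271) and 0.98 (adjusted p = 0.129), and relative to the median probe both were close to 0.8, at 0.80 and 0.79. The OneDose_2d call was lost without OneDose_2d tumour A (1.15, adjusted p = 0.135). The TwoDose_2d call was lost without any 1 of 8 tumours (TwoDose_2d A, B or D, or untreated A, C, D, E or F), at differences of 1.22 to 1.47 and adjusted p of 0.0576 to 0.151. For OneDose_8d minus untreated the difference was -0.25 ± 0.59 (adjusted p = 0.984).

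IL21 was close to the detection limit throughout, above it in 7 of 17 tumours, and counts this low carry large counting error. Raw counts were 19, 1, 36 and 2 in TwoDose_2d tumours A to D, 42, 46 and 34 in OneDose_8d tumours A to C, and 8, 24 and 49 in OneDose_2d tumours A to C, against 16 to 26 in untreated tumours. All 3 OneDose_8d tumours were above their limits, at 28.7, 35.5 and 31.2 normalized counts, and above every untreated tumour, whose values ran from 11.7 to 22.8 with a median of 18.1. IL21 was the only 1 of the 7 members to separate from untreated at 8 days, beside 2.62% of all probes tested, and the difference of 0.88 ± 0.70 (SE) did not pass the test (edgeR adjusted p = 0.984). The OneDose_2d difference of 3.00 ± 0.70 (adjusted p = 0.00285) came from tumour C, the shallowest library, whose 49 counts scale to 383 normalized counts, while A and B were not above the limit at 13.8 and 41.3. Without tumour C it was 0.68 (adjusted p = 0.361). TwoDose_2d tumours ranged from 1.63 to 28.6 normalized counts with a log2 difference of -0.13 ± 0.71 (adjusted p = 0.917).

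**Figure D2:**
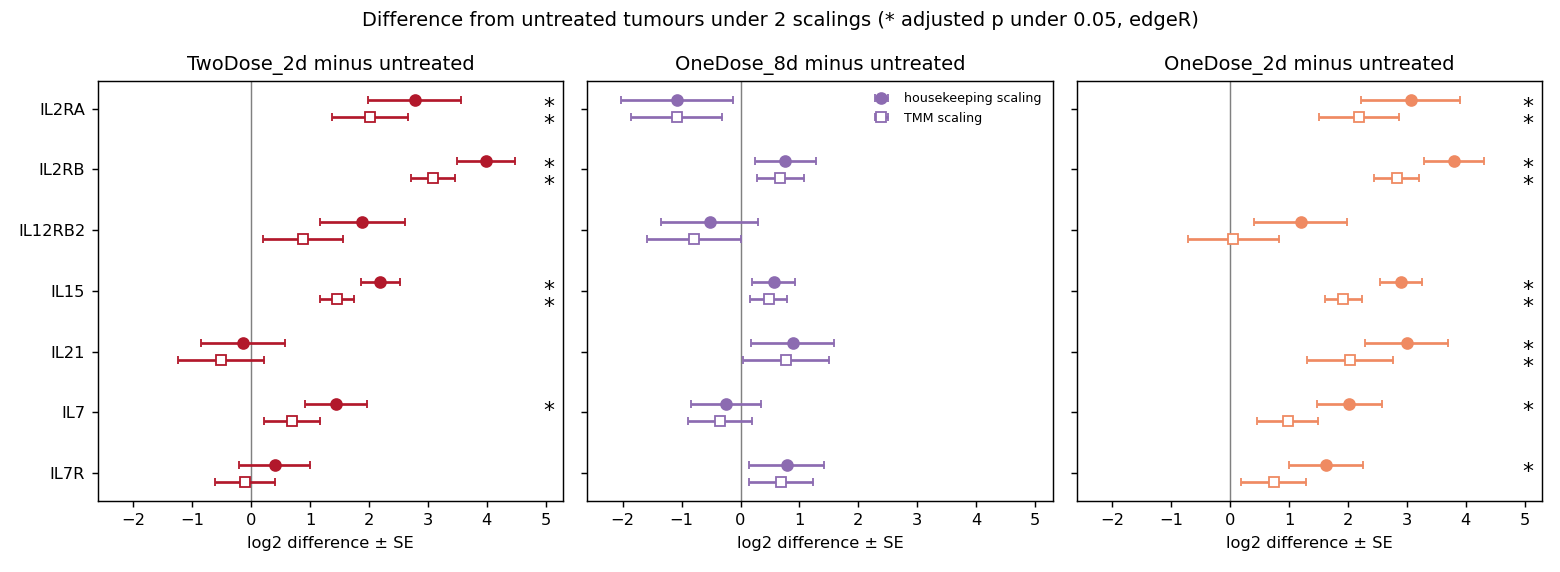
Log2 difference from untreated tumours with its standard error for each probe, under housekeeping scaling (filled circles) and TMM scaling (open squares), for TwoDose_2d, OneDose_8d and OneDose_2d tumours; asterisks mark an adjusted p under 0.05. TMM values are smaller in both day 2 groups, IL2RA, IL2RB and IL15 keep their asterisk in both, and IL12RB2 at OneDose_2d is 1.20 under one scaling and 0.05 under the other.

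Treated groups were then set against each other. For TwoDose_2d minus OneDose_8d, both taken on day 8 after the first dose, 3 of the 7 members passed, all higher, beside 9.39% of all probes tested. These were IL2RA (3.85 ± 1.15, edgeR adjusted p = 0.0441), IL2RB (3.22 ± 0.67, adjusted p = 0.0158) and IL15 (1.63 ± 0.44, adjusted p = 0.0344), of which IL15 did not pass with TMM scaling (0.99, adjusted p = 0.109). IL2RA, IL2RB, IL12RB2 and IL15 were higher in every TwoDose_2d tumour than in every OneDose_8d tumour, beside 15.9% of all probes. IL21 was lower in every TwoDose_2d tumour, beside 3.59% of all probes, by a gap between 28.6 and 28.7 normalized counts that closed with TMM scaling. All 3 calls were lost when any 1 of the OneDose_8d tumours was left out, which leaves that group with 2 tumours, and IL2RA and IL15 were also lost without TwoDose_2d tumour B or D.

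For OneDose_8d minus OneDose_2d, 4 of the 7 members passed, all lower at 8 days, beside 19.6% of all probes tested (19.2% lower). IL2RA differed by -4.14 ± 1.19 (edgeR adjusted p = 0.0298), IL2RB by -3.04 ± 0.68 (adjusted p = 0.0142), IL15 by -2.33 ± 0.46 (adjusted p = 0.00961) and IL7 by -2.27 ± 0.72 (adjusted p = 0.0416). IL2RA, IL2RB, IL12RB2, IL15 and IL7 were lower in every OneDose_8d tumour than in every OneDose_2d tumour, beside 38% of all probes. The median probe differed by -1.13 here, and by -0.28 with TMM scaling, under which IL7 no longer passed (-1.32, adjusted p = 0.158). Leaving out any 1 of the OneDose_8d tumours again ended all 4 calls, and leaving out OneDose_2d tumour A ended those of IL2RA (-3.63, adjusted p = 0.052) and IL7 (-1.39, adjusted p = 0.155).

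For TwoDose_2d minus OneDose_2d, 0 of the 7 members passed, beside 0% of all 724 probes (88 had an unadjusted p under 0.05; DESeq2 called 6 probes and limma 1, none of them a member). IL2RB differed by 0.18 ± 0.59, IL2RA by -0.29 ± 0.97, IL15 by -0.70 ± 0.41 and IL12RB2 by 0.69 ± 0.92, and these errors leave room for a difference in either direction. IL7R was the 1 member apart between these groups, lower in every TwoDose_2d tumour (at most 91.3 normalized counts) than in every OneDose_2d tumour (at least 107), beside 4.97% of all probes; its log2 difference was -1.22 ± 0.74 (edgeR adjusted p = 0.58). IL21 had the smallest unadjusted p of the 7, 0.00221 (-3.13 ± 0.87, adjusted p = 0.16), and rests on the low counts given above.

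Sarcoma type was not balanced over treatment, so the members were also compared by type within the untreated group, as Perivascular wall tumor (4 tumours) minus Peripheral nerve sheath tumor (3 tumours). IL21 did not pass the count filter there, and 0 of the other 6 members passed the test, beside 0% of the 676 probes tested (27 with an unadjusted p under 0.05; DESeq2 called 4 probes and limma 0). IL7 ranged from 11.0 to 28.3 normalized counts in the Perivascular wall tumor samples. It ranged from 34.3 to 55.6 in those of Peripheral nerve sheath tumor type (-1.12 ± 0.40, edgeR adjusted p = 0.998). These ranges did not overlap, and how many of all probes were apart between the types in this way was not counted. IL12RB2 ranged from 6.67 to 29.7 in the first type and from 26.3 to 167 in the second (-2.28 ± 0.78, adjusted p = 0.998). IL2RB ranged from 25.0 to 40.0 in the first type and from 27.4 to 85.2 in the second (-0.76 ± 0.43, adjusted p = 0.998). With sarcoma type as a term in the fit, IL2RB and IL15 still passed in TwoDose_2d tumours, and IL2RB, IL15 and IL21 in OneDose_2d tumours. Within the Peripheral nerve sheath tumor type alone, IL2RB and IL15 passed at OneDose_2d and no member passed at TwoDose_2d, where 0 of 705 probes were called and IL2RB differed by 3.19 (adjusted p = 0.102).

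Most tested markers of T cells and NK cells were called higher in both day 2 groups, and most of B cells only at OneDose_2d. Of all probes, 33.3% were called higher in TwoDose_2d, 0% in OneDose_8d and 47.8% in OneDose_2d tumours (21.5%, 0% and 23.5% with TMM scaling). The summed normalized counts of 12 T cell markers ranged from 1393 to 5217 in TwoDose_2d tumours, 658 to 887 in OneDose_8d tumours, 1912 to 2465 in OneDose_2d tumours and 250 to 970 in untreated tumours. Of these 12 markers, 10 were called higher in TwoDose_2d, 0 in OneDose_8d and 8 in OneDose_2d tumours. The summed counts of 9 NK cell markers ranged from 1253 to 3538 in TwoDose_2d tumours, 905 to 1373 in OneDose_8d tumours, 1397 to 5115 in OneDose_2d tumours and 618 to 1153 in untreated tumours, and 7, 0 and 8 of them were called higher. The summed counts of 7 B cell markers ranged from 137 to 606, 132 to 197, 377 to 734 and 75.4 to 247 in the same groups; of 5 tested, 2, 0 and 5 were called higher, and 0, 0 and 4 with TMM scaling. Sums for macrophage and monocyte markers ranged from 4242 to 11084, 5982 to 6687, 4655 to 13596 and 1628 to 10965 in the same groups, with 1, 0 and 3 of 7 markers called higher; with TMM scaling 0, 0 and 0 were, and 1 (MRC1) was lower in TwoDose_2d tumours. Summed fibroblast and matrix markers were abundant in every tumour and ranged from 76108 to 181368, 114412 to 242936, 34567 to 138584 and 62776 to 358226. Of 6 such markers, 0, 0 and 2 were called lower (FN1 and THY1, at OneDose_2d), and 2, 0 and 4 with TMM scaling. The part of these cell types in the differences above was not tested, beyond the measure that follows.

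Each member was therefore also expressed relative to the 21 T and NK cell markers in the same tumour, as its log2 count minus their mean log2 count, a measure in which the scaling cancels. IL2RB stood at 1.45, 2.22, 1.11 and 1.98 log2 units above the markers in TwoDose_2d tumours A to D and at 2.10, 2.45 and 1.18 in OneDose_2d tumours A to C. It stood at 0.23, 0.52 and 0.17 in OneDose_8d tumours A to C and at 0.04 to 0.65 in untreated tumours. All day 2 tumours of both groups thus lay above all untreated tumours, and the OneDose_8d tumours lay within the untreated range. How many of all probes were apart in this way on the same measure was not counted. The mean difference was 1.33 for TwoDose_2d minus untreated, above all untreated tumours in 4 of 4 (exact two-sided permutation test on the absolute difference in means, p = 0.00303, the smallest that 330 arrangements can give; adjusted over 21 tests p = 0.0318). For OneDose_2d minus untreated it was 1.56, above all untreated tumours in 3 of 3 (exact p = 0.00833, the smallest that 120 arrangements can give; adjusted p = 0.0583). For OneDose_8d minus untreated it was -0.05 (exact p = 0.742). Leaving out 1 tumour kept the TwoDose_2d difference between 1.16 and 1.53; the adjusted p was then 0.05 to 0.0583, and 0.0636 with the doubled one-sided p, a choice added after seeing the data. In those settings even the smallest exact p the design allows passes the adjustment only if enough of the 21 tests reach it. Those settings thus bear on the size of the difference and not on its test. The 21 markers did not move alike: in TwoDose_2d minus untreated NKG7 (4.08), NCR1 (3.66) and CD8A (3.63) differed about as much as IL2RB (3.98), while CD247 (0.69), KLRK1 (0.06) and NCR3 (0.04) did not pass the test. The IL2RB value is thus an excess over the markers' mean and not over each of them.

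No other receptor passed the test relative to these markers. IL2RA differed by 0.83 for TwoDose_2d minus untreated (exact permutation p = 0.306) and by 1.46 for OneDose_2d minus untreated (exact p = 0.167), with untreated tumour D, at 2.62, above every treated tumour. IL12RB2 differed by -0.03 and -0.44 in the same comparisons (exact p = 0.985 and 0.658). IL7R stood below the markers in all 4 TwoDose_2d tumours, with a mean of -1.12 ± 0.73 (SD, n = 4), against 0.36 ± 0.95 in untreated tumours (SD, n = 7); the difference of -1.47 did not pass the adjustment (exact permutation p = 0.0273, adjusted p = 0.14). IL15 differed by 0.54 for OneDose_2d minus untreated (exact p = 0.0333, adjusted p = 0.14) and by -0.19 for TwoDose_2d minus untreated (exact p = 0.476). IL21 differed by -2.65 for TwoDose_2d minus untreated (exact p = 0.00303, adjusted p = 0.0318), with 3 of its 4 TwoDose_2d counts and 5 of its 7 untreated counts at or below the detection limit. On the housekeeping scale IL21 itself differed by -0.13 between these groups while the markers were higher, and without TwoDose_2d tumour B the relative difference was -1.75. The markers themselves are partly near the limit: NCR1, CD160 and CD244, 3 of the 9 NK cell markers, were not above it in any untreated tumour. No background was subtracted, and the part of this in the differences was not tested.

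**Figure D3:**
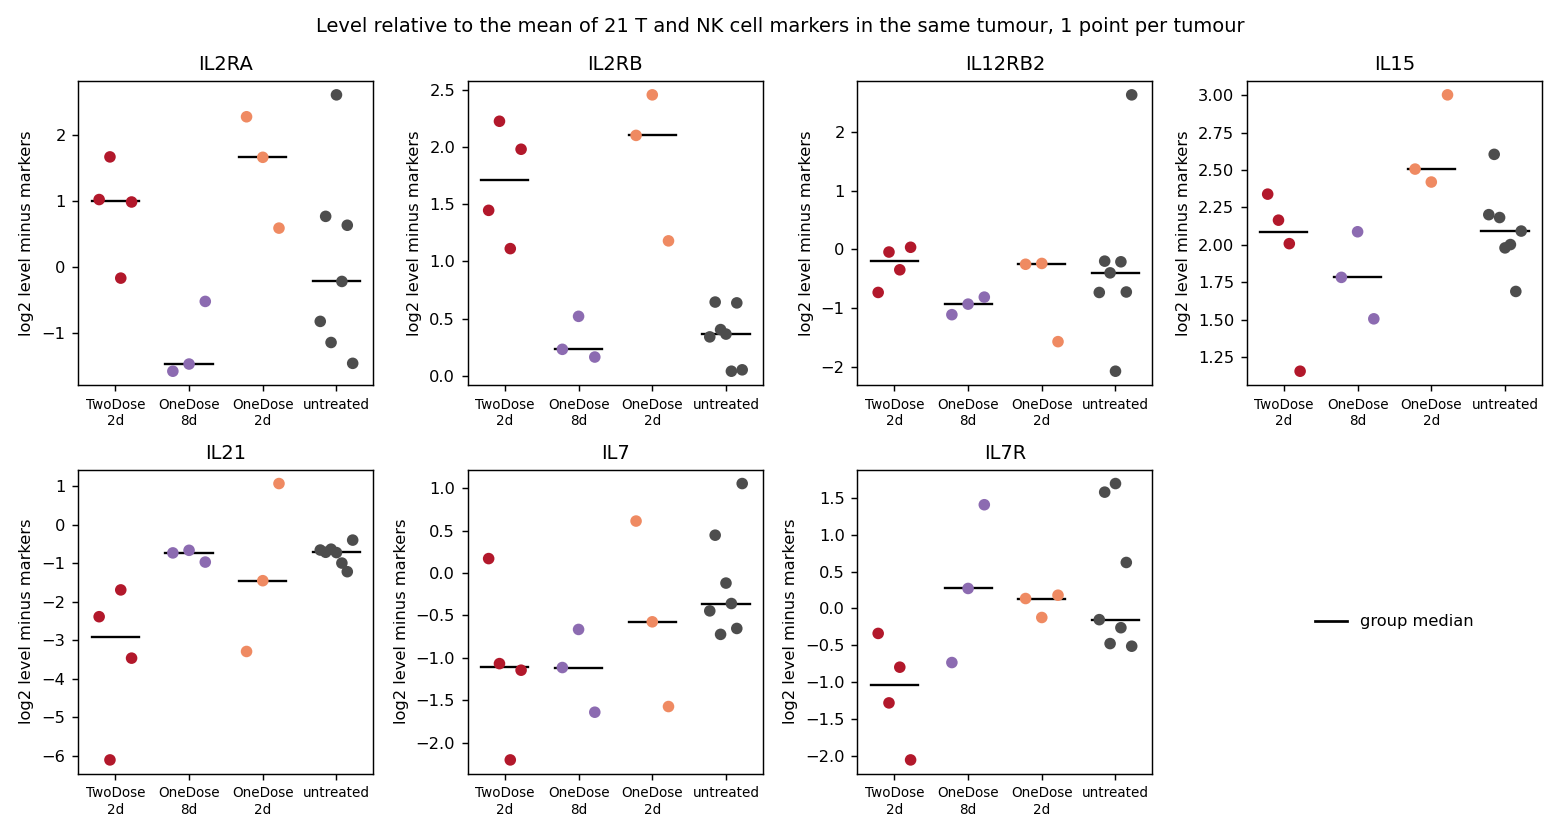
Log2 level of each probe minus the mean log2 level of 21 T and NK cell markers in the same tumour, 1 point per tumour with the group median as a line. IL2RB lies at 1.11 or above in every tumour taken 2 days after a dose and at 0.65 or below in every OneDose_8d and untreated tumour, while IL2RA, IL12RB2 and IL15 overlap the untreated range.

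Ratios of raw counts within a tumour, which also need no scaling, showed how the receptor chains moved against each other. The IL2RA count was 0.75, 0.68, 0.41 and 0.50 of the IL2RB count in TwoDose_2d tumours A to D, 0.28, 0.25 and 0.62 in OneDose_8d tumours A to C, and 1.13, 0.58 and 0.66 in OneDose_2d tumours A to C. In untreated tumours it ran from 0.32 to 1.09 in 6 tumours and was 4.83 in tumour D, so the treated groups overlapped the untreated range. The IL12RB2 count was 0.22, 0.21, 0.36 and 0.25 of the IL2RB count in TwoDose_2d tumours A to D, 0.39, 0.36 and 0.50 in OneDose_8d tumours A to C, and 0.19, 0.15 and 0.13 in OneDose_2d tumours A to C. In untreated tumours this ratio was 0.17 in tumour D, 0.38 to 0.83 in 5 tumours and 6.11 in tumour G. Day 2 tumours therefore had a lower raw ratio than 6 of the 7 untreated tumours and overlapped the group through tumour D. IL12RB2 was not above the detection limit in untreated tumours A, C and D (17, 19 and 8 counts). The same held for TwoDose_2d tumour D and OneDose_2d tumour C. No background was subtracted, and its part in these ratios was not tested.

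The probes with profiles most like each member over the 17 tumours were listed by the root mean square difference of centred log2 profiles, as a description. IL2RB was closest to NKG7, a cytotoxic granule protein (0.27 log2 units), EOMES, a transcription factor of NK and CD8 T cells (0.34), and SH2D1A, the SLAM-associated adaptor (0.39), beside a median of 1.63 over all probes. The same 3 came first without the 2 low-count libraries. NKG7 is also 1 of the 21 markers used above. IL2RA was closest to ISG20 (0.60), CCR1 (0.65) and CD274, which encodes PD-L1 (0.71), beside a median of 1.85. IL15 was closest to IL21R (0.44), CD3G (0.47) and IFI35 (0.47), beside a median of 1.13. IL7 was closest to IFI35 (0.60), IL7R to TLR7 (0.65) and IL12RB2 to POU2AF1 (0.79), less close than any of those for IL2RB. Their medians were 1.17, 1.20 and 1.45. Without the 2 low-count libraries, IL2RA kept the same 3 probes in another order, and IL7 and IL12RB2 kept their nearest probe. IL15 was then closest to TBX21 (0.26), CTSH (0.34) and CD3G (0.34), and IL7R to CD80 (0.56). The nearest probes to IL21, LOC102156626 and HAMP, were each above the detection limit in 4 of 17 tumours.

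The partners of these receptors were measured on the same panel. Of 5 tested probes for other common gamma chain family genes, 3 were called higher in TwoDose_2d, 0 in OneDose_8d and 4 in OneDose_2d. Shares over all probes were 33.3%, 0% and 47.8% in the same groups. With TMM scaling 2, 0 and 2 were called higher, beside 21.5%, 0% and 23.5% of all probes. IL2RG, the common gamma chain that pairs with IL2RB, IL7R and the IL-21 receptor, averaged 924 ± 807 normalized counts in TwoDose_2d tumours (SD, n = 4), 105 ± 21.5 in OneDose_8d tumours and 1091 ± 541 in OneDose_2d tumours (SD, n = 3 each), against 84.2 ± 53.4 in untreated tumours (SD, n = 7). It was called in both day 2 groups, at 3.45 ± 0.59 (SE) in TwoDose_2d and 3.70 ± 0.62 in OneDose_2d tumours (edgeR adjusted p = 0.000364 and 0.00032). IL21R, the receptor chain for IL-21, was called at 2.74 and 2.65 in the same groups (adjusted p = 0.000445 and 0.000975). The probe for IL2 itself averaged 711 ± 91.6 normalized counts in TwoDose_2d and 767 ± 197 in OneDose_2d tumours, against 531 ± 88.4 in untreated tumours, and was not called in either (0.42 and 0.53, adjusted p = 0.173 and 0.0832; -0.20 and -0.49 with TMM scaling).

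Of 5 tested probes for other IL-12 family genes, 3 were called higher in TwoDose_2d, 0 in OneDose_8d and 4 in OneDose_2d tumours. Shares over all probes were 33.3%, 0% and 47.8% in the same groups. With TMM scaling 3, 0 and 3 were called higher, beside 21.5%, 0% and 23.5% of all probes. IL6ST was then called lower at OneDose_2d. IL12RB1, the second chain of the IL-12 receptor, averaged 167 ± 161 normalized counts in TwoDose_2d tumours (SD, n = 4) and 185 ± 104 in OneDose_2d tumours (SD, n = 3), against 29.8 ± 7.87 in untreated tumours (SD, n = 7). It was called in both, at 2.43 ± 0.53 (SE) and 2.60 ± 0.56 (edgeR adjusted p = 0.00181 and 0.00163), where its partner IL12RB2 was not. EBI3 and IL27, the subunits of IL-27, were called in both as well, EBI3 at 3.21 and 2.50 and IL27 at 2.59 and 1.95, though IL27 did not pass at OneDose_2d with TMM scaling (0.94, adjusted p = 0.145).

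Among 9 signal transducers below these receptors, 1 was called higher in TwoDose_2d, 0 in OneDose_8d and 4 in OneDose_2d tumours, where 1 was lower. Shares over all probes called higher were 33.3%, 0% and 47.8%. With TMM scaling 1, 0 and 1 were higher, beside 21.5%, 0% and 23.5% of all probes, and 1 was lower at OneDose_2d. JAK3, the kinase bound to the common gamma chain, was called at 3.07 ± 0.65 (SE) in TwoDose_2d and 2.89 ± 0.68 in OneDose_2d tumours (edgeR adjusted p = 0.00156 and 0.00289). STAT4, which carries the IL-12 signal, was lower in OneDose_2d tumours at -0.98 ± 0.38 (adjusted p = 0.0432) and at -2.03 with TMM scaling (adjusted p = 0.00813); in TwoDose_2d tumours it differed by -0.34 ± 0.33 (adjusted p = 0.491). STAT5A and STAT5B, which carry IL-2, IL-7 and IL-15 signals, were called at OneDose_2d at 0.72 and 1.32, where the median probe stood at 1.23, and with TMM scaling neither passed, at -0.31 and 0.31. The transducers' median was 0.27 in TwoDose_2d and 0.37 in OneDose_2d tumours, below the 0.63 and 1.23 of all probes.

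Among 11 downstream and feedback genes, 7 were called higher in TwoDose_2d, 0 in OneDose_8d and 9 in OneDose_2d tumours. Shares over all probes were 33.3%, 0% and 47.8% in the same groups. With TMM scaling 6, 0 and 6 were called higher, beside 21.5%, 0% and 23.5% of all probes. SOCS1, a feedback inhibitor of cytokine signalling, was called at 2.87 ± 0.51 (SE) in TwoDose_2d and 3.42 ± 0.54 in OneDose_2d tumours (edgeR adjusted p = 0.000442 and 0.000211). CISH, a feedback inhibitor induced through STAT5, was called at OneDose_2d at 1.39 ± 0.41 (adjusted p = 0.0111), though not with TMM scaling (0.46, adjusted p = 0.273), and was at 0.90 ± 0.39 in TwoDose_2d tumours (adjusted p = 0.0833). FOXP3, the regulatory T cell factor of cells that carry IL2RA at rest, differed by 0.38 ± 0.50 in TwoDose_2d tumours (adjusted p = 0.611; -0.27 with TMM scaling) and was called at OneDose_2d at 1.70 ± 0.52 (adjusted p = 0.013), though not with TMM scaling (0.71, adjusted p = 0.295).

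**Figure D4:**
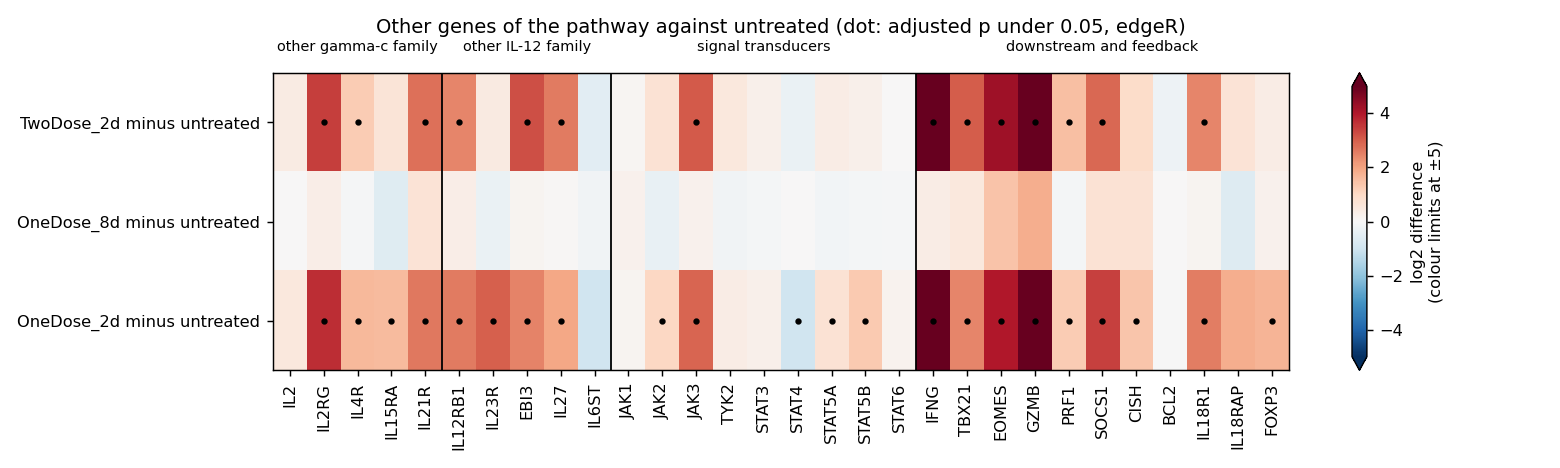
Log2 difference from untreated tumours under housekeeping scaling for other genes of the same pathways, with 1 row each for TwoDose_2d, OneDose_8d and OneDose_2d tumours and a dot where the adjusted p is under 0.05; colours stop at 5 in either direction. The OneDose_8d row has no dot, and the day 2 rows have 14 and 21 dots higher and 1 lower (STAT4, OneDose_2d). Of all probes tested, 33.3% were called higher in TwoDose_2d and 47.8% in OneDose_2d tumours.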

How the data were processed

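RNA from 17 tumours was counted on an nCounter canine panel with 780 endogenous, 20 housekeeping, 8 negative and 6 positive control probes. The authors deposited raw counts per probe, exported from nSolver before normalization per the file headers and the series' design text. A second deposited table holds normalized signal values that the authors made in nSolver; no source read here states its settings, and it served as an alternative. A further 17 columns of normalized values match no label and were not used. Labels name no cartridge or batch.

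Endogenous counts were fitted with edgeR 4.0.16 (R 4.3.3; quasi-likelihood, robust), all 17 tumours and 4 groups in one model, with the housekeeping geometric mean as library size. Probes above the mean plus 2 SD of the negative controls in at least 3 tumours were tested (724), and p-values were adjusted by Benjamini-Hochberg over all of them at 0.05. Normalized counts are raw counts times the mean housekeeping geometric mean over the tumour's own. Levels relative to T and NK cell markers used log2(count + 1) and exact permutation tests (Python 3.11.15, numpy 2.4.6, pandas 2.3.3, scipy 1.17.1; figures with matplotlib 3.10.9), adjusted over 21 tests. The fits and tests were tested on simulated data.

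Alternatives were TMM, DESeq2 1.42.0, no filter, background subtraction, limma 3.58.1 on the deposited signal, sarcoma type as a term, 1 sarcoma type alone, a replicate block, and leaving out tumours. The text names all 7 members, genes of 4 pathway lists (1 signal transducer is not reported here and was left out of its list's counts), and the 3 probes most like each member. Members and lists were chosen with earlier results of these data known. The RefSeq table of UU_Cfam_GSD_1.0 gave names only: all 7 symbols and 4 of the 7 probe transcripts matched. Depth limits the 2 low-count libraries most: scaling multiplies their counts by 7.81 (OneDose_2d C) and 8.78 (TwoDose_2d D), and those of the other tumours by 0.682 to 1.73.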

Additional observations from a re-analysis of the deposited data

Results flagged for a closer look

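In 3 of 14 groups of 4 to 7 tumours examined, 1 tumour lay far from the others of its group. Each was the highest of the 7 untreated tumours for its gene. The 14 groups reuse the same tumours for different genes, and how often chance gives such a gap in these counts was not tested. IL2RA was 193 normalized counts in untreated tumour D, a Perivascular wall tumor, against at most 85.2 in the other untreated tumours. IL2RB was 85.2 in untreated tumour F, and IL12RB2 was 167 in untreated tumour G, both of Peripheral nerve sheath tumor type. Without tumour G, IL12RB2 passed the test against untreated tumours in both day 2 groups.

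The effect against untreated tumours differed between OneDose_8d and OneDose_2d tumours for 4 members (edgeR adjusted p under 0.05 for the difference itself): IL2RA by -4.14, IL2RB by -3.04, IL15 by -2.33 and IL7 by -2.27 on the log2 scale.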

How the results depend on the processing

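Outside the settings that leave out 1 tumour, 462 of the results for single members kept their direction and side of the threshold, 64 lost their call, 3 gained one and 26 turned direction; no called difference turned. For TwoDose_2d minus untreated, members called were 4 in the main setting, 2 with sarcoma type as a term, 0 within Peripheral nerve sheath tumor (fewer tumours) and 2 without the 2 low-count libraries, and ranged from 2 to 5 when 1 tumour was left out. For OneDose_2d minus untreated they were 6 in the main setting, and 3 and 2 with the first 2 of these settings. IL7 and IL7R also lost their OneDose_2d call with TMM, DESeq2 and background subtraction. So did IL7 and IL21 with limma, and IL7R and IL21 without the low-count libraries. In TwoDose_2d minus untreated, IL7 lost its call with TMM, DESeq2, background subtraction and limma, and IL12RB2 gained one with limma. For TwoDose_2d minus OneDose_8d, members called were 1 with limma. They were 0 with the type term, the replicate block, 1 type alone or without the low-count libraries (0 to 4 leaving out 1 tumour). For OneDose_8d minus OneDose_2d they were 2 with background subtracted, 1 with the type term and 0 within 1 type (0 to 4). For TwoDose_2d minus OneDose_2d they ranged from 0 to 1. Members called relative to lymphocyte markers in TwoDose_2d tumours fell to 0 within 1 type and without the low-count libraries. They also fell to 0 with the doubled one-sided p chosen after seeing the data, and were 0 to 0 leaving out 1 tumour. Within 1 type the smallest p the design allows is too large for a call. In the other settings it passes only if enough of the tests reach so small a p. IL2RB stayed between 1.16 and 1.53 leaving out 1 tumour.

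None of the turned values had passed the test. IL7R in TwoDose_2d minus untreated was -0.10 with TMM, -0.17 with DESeq2 and -0.055 with the type term, and IL12RB2 in OneDose_2d minus untreated was -0.017 with DESeq2. In OneDose_8d minus untreated, IL12RB2 was 0.084 with limma. In TwoDose_2d minus OneDose_2d, limma gave -0.23 for IL2RB and 0.31 for IL7, and IL2RB was -0.13 within 1 type. Without the low-count libraries it was -0.41, IL12RB2 was -0.0054, and IL21 in OneDose_8d minus OneDose_2d was 0.20. IL2RA by type was -0.36 with limma. Relative to markers, OneDose_8d values were 0.0037 for IL21 with T cell markers alone, 0.022 for IL2RB and 0.0078 for IL7R with a pseudocount of 10, and 0.0097 (deposited values) and 0.28 (1 type) for IL7R. In TwoDose_2d tumours IL12RB2 was 0.040 with NK cell markers alone and 0.093 with deposited values, and IL15 was 0.042 within 1 type and 0.063 without the low-count libraries, where IL7 in OneDose_2d tumours was 0.13. The cause was not tested.

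Leaving out 1 tumour also turned some. In TwoDose_2d minus untreated, IL21 ranged from -0.77 to 0.26. In OneDose_8d minus untreated, IL12RB2 ranged from -0.71 to 0.51 and IL7R from -0.067 to 1.20. In TwoDose_2d minus OneDose_8d IL7R ranged from -0.80 to 0.47, and in OneDose_8d minus OneDose_2d IL21 from -2.69 to 0.20. In TwoDose_2d minus OneDose_2d, IL2RA ranged from -0.82 to 0.23, IL2RB from -0.22 to 0.48 and IL7 from -0.92 to 0.29. By type, IL2RA ranged from -1.59 to 0.98. Relative to markers, TwoDose_2d values ranged from -0.33 to 0.45 for IL12RB2 and -0.33 to 0.063 for IL15, OneDose_8d values from -0.10 to 0.066 for IL21, -0.16 to 0.021 for IL2RB and -0.59 to 0.48 for IL7R, and OneDose_2d values from -0.75 to 0.036 for IL12RB2, -1.61 to 0.57 for IL21 and -0.96 to 0.13 for IL7.

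The replicate letters name different dogs. Letters E, F and G occur only among untreated tumours, so differences in a fit with the letter as a block do not draw on those tumours. Same-letter tumours correlated between -0.207 and 0.380 over 19 pairs, 8 of them over 0.1. The 84 other-letter pairs ran from -0.460 to 0.472, with 23 over 0.1. For TwoDose_2d and untreated tumours all 4 same-letter pairs were over 0.1 (0.198 to 0.380). Between the same groups an other-letter pair, TwoDose_2d B and untreated D, reached 0.472. No label says that a letter is shared. With the letter as a replicate block, 5 members passed in TwoDose_2d (IL12RB2 gained its call) and 6 in OneDose_2d minus untreated (IL12RB2 gained and IL7R lost its call, IL7R at adjusted p = 0.0642), 4 in OneDose_8d minus OneDose_2d and 0 elsewhere; OneDose_8d minus untreated turned to 0.43 for IL2RA, 1.11 for IL12RB2 and 0.40 for IL7, and TwoDose_2d minus OneDose_2d to -0.40 for IL2RB. IL2RA and IL12RB2 were above the detection limit in 12 of 17 tumours each, IL7 in 13 and IL21 in 7, which limits their values.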
